A study of Mus musculus with 30 samples.

Results

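The lung part of this single-cell survey set a mouse with collagen-induced arthritis (CIA) against a healthy mouse. Its members were all barcodes of the CIA lung library (mouse S1, arthritis score 8) and of the healthy lung library (mouse H6, score 0), taken by the organ and state in the sample labels. They came to 182 and 70 barcodes, 252 of the 8282 barcodes in the 30 libraries from 8 organs. Both mice were male DBA1/J. S1 had received 100 µg of collagen II from cattle in adjuvant and a booster on day 20, and H6 was labelled healthy. Lungs had been frozen, thawed, minced and digested with collagenase IV and DNase before the cells went onto a Seq-Well array, in which cells and barcoded beads share small wells. There was 1 library per state, so no difference below has a replicate check and no test was made. State, mouse and the title suffix (2CIA for S1, CIA for H6) cannot be told apart.

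In the healthy mouse lung, alveolar macrophages lie on the air side of the alveolus and clear surfactant, interstitial macrophages and monocytes lie in the tissue and its vessels, type 2 pneumocytes make surfactant, and club cells line the airways and secrete uteroglobin. Neutrophils and Ly6C-high monocytes are made in bone marrow and reach the lung through blood. S100a8 and S100a9, which together form calprotectin, are among the most abundant products of neutrophils and are also made by classical monocytes. Interferon-stimulated genes form a programme that type I and type II interferons switch on in most cell types.

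The deposited value of a gene in a barcode was a sum of molecules over that barcode and its nearest neighbours. Summed per library these values are called units, and units scaled to a library total of 1000000 are written UPM. The healthy library held 477553 units and 29 distinct profiles among its 70 barcodes, and the CIA library held 1180747 units and 67 distinct profiles among 182. Totals per barcode were alike, with a median of 6699 in the healthy and 6529 in the CIA library. The libraries differed in how many rare genes they held, since a highest value of 1 was found for 55.2% of the genes above 0 in the healthy library and for 16.9% of those in the CIA library. A gene at 0 on either side is therefore described only as listed at 0. Genes that all cells use were among them, since Gapdh was 56.5 UPM in healthy and listed at 0 in CIA, and Eno1 was listed at 0 in healthy and 52.5 UPM in CIA. In sums over a library, fewer cells of a type and less RNA per cell cannot be told apart.

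The CIA lung library shared 13 cell barcodes with the library of healthy spleen, the largest number among the 435 pairs of libraries, of which 28 shared any. Together with 7 others these 13 formed a group of 20 CIA lung barcodes that stood apart. A set of 14 rows chosen after their values were seen, 13 of them pseudogenes or predicted genes and most of these named for ribosomal proteins, made up 97021 to 102530 UPM in each of the 20, against 0 to 990 UPM in the other 162. The same rows made up 73258 to 82153 UPM in the 13 shared barcodes of the spleen. In the healthy lung they ran from 0 to 4800 UPM. The 20 barcodes had 3 distinct profiles and held 9.96% of the CIA units, with a median Lyz2 of 347 UPM against 15984 UPM in the others. Reads of ribosomal pseudogenes cannot be told apart from those of their near-identical parents, and Gins3, a replication gene in the set, was at 0 once the 20 barcodes were left out. Where leaving them out moved a call or a level named below by more than 1.5-fold, or turned an order, both values are given. For Ctsk only the change of the call is stated. In the healthy lung 1 barcode was shared with other libraries, the CIA lung among them.

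**Figure D1:**
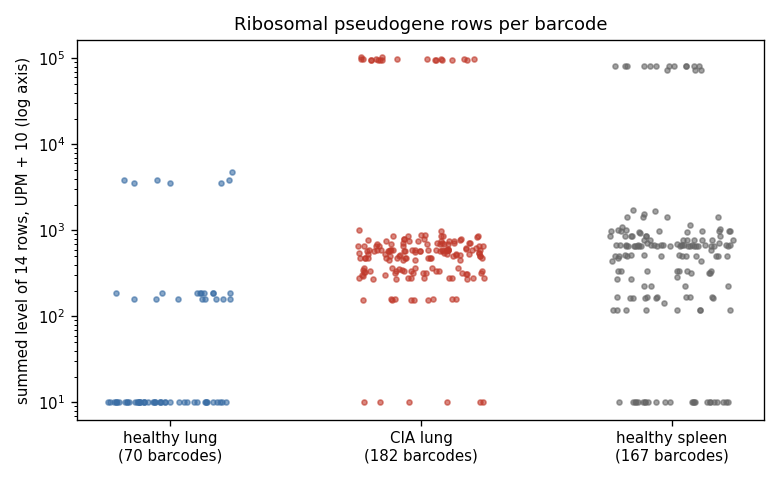
Summed level of the 14 rows per barcode, as UPM + 10 on a log axis, in healthy lung, CIA lung and healthy spleen, with 1 point per barcode. A group of 20 CIA lung barcodes and a group of 15 healthy spleen barcodes lie at 73258 UPM or more, far above all others.

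Scgb1a1 and Sftpc, genes of lung epithelium, were found in both lung libraries. Scgb1a1, Scgb3a2 and Sftpa1 were listed at 0 in all 28 libraries of other organs, and Sftpc, the surfactant protein of type 2 pneumocytes, was above 0 in 1 of them. Lyz2, the lysozyme of myeloid cells and type 2 pneumocytes, stood at 20396 UPM in healthy and 15102 UPM in CIA, above its level of at most 9975 UPM in any other organ. The highest genes of the healthy lung after Lyz2 were Scgb1a1, Tmsb4x and Malat1. Those of the CIA lung were Actb, Lyz2, S100a8 and Tmsb4x. The libraries come from 3' tags, so such levels need no correction for transcript length.

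By summed marker genes, the neutrophil list was 496 UPM in healthy and 17646 UPM in CIA, and the club cell list went the other way, from 16622 to 862 UPM. Much of either sum was 1 gene. Without S100a8 the neutrophil list was 222 and 3600 UPM. Without Scgb1a1 the club cell list was 1148 and 302 UPM, a log2 ratio of -1.89. The alveolar macrophage list was lower in CIA, at 1299 UPM against 3566 UPM, as was the type 2 pneumocyte list at 3162 UPM against 8579 UPM. Fibroblast genes summed to 695 and 50.0 UPM and B cell genes to 643 and 40.7 UPM. The monocyte list, most of it Lyz2, was close at 22096 and 19739 UPM. T cell genes summed to 354 and 259 UPM and natural killer genes to 302 and 294 UPM. No mast cell or basophil marker was above 0 in either library, and erythroid genes summed to 155 and 47.4 UPM. Leaving out the 20 barcodes moved none of the lists by more than 1.5-fold.

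**Figure D2:**
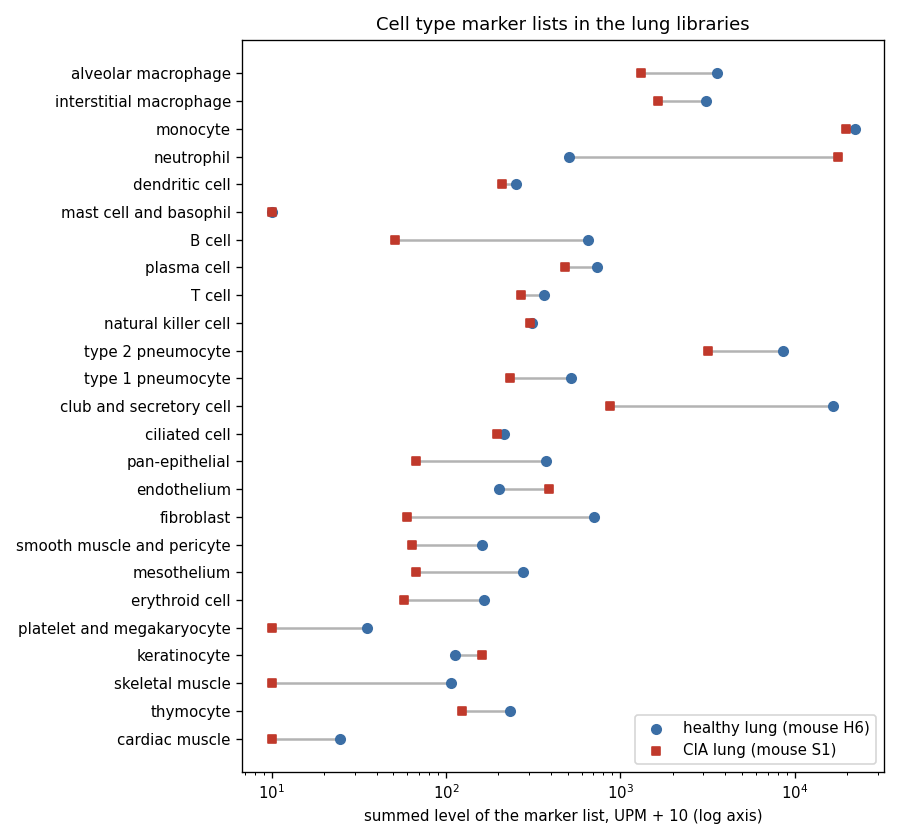
Summed level of each cell type marker list in the healthy (circles) and CIA (squares) lung library, as UPM + 10 on a log axis, with no error because each state had 1 library. Neutrophil genes lie far to the right in CIA, while club cell, fibroblast and B cell genes lie far to the left.

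Over the whole table, 5144 genes had a mean of at least 25 UPM, and a gene counted as different when the log2 ratio of (UPM + 10) reached 2, a 4-fold change. By this rule 590 genes were higher in CIA, 11.5% of those kept, and 788 were lower, 15.3%. Of the higher genes 407 were listed at 0 in the healthy library, and of the lower genes 746 were listed at 0 in the CIA library, which held few rare genes. Among genes above 0 in both libraries, 183 were higher and 42 lower. The median log2 ratio over the genes kept was 0.07. A ratio of a gene listed at 0 on one side depends on the added 10 UPM and is not given as a fold below. Without the 20 barcodes the counts were 510 higher, 10.1% of 5034 genes, and 820 lower, 16.3%, and 425 of the 590 and 780 of the 788 were among them.

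The largest ratios among genes above 0 on both sides split into those that needed the 20 barcodes and those that did not. Of the 12 largest higher, 9 belonged to the pseudogene set, and 4 of the 12 passed 4-fold without those barcodes. Of these, S100a8, Saa3 and Ifi27l2a stood at 15381, 715 and 2548 UPM without the 20 barcodes, and Rpl34-ps2 at 189 UPM against 31.4 UPM in healthy. Gm14877 dropped from 966 to 44.2 UPM and Rpl31-ps7 from 595 to 15.1 UPM when they were left out. All 12 of the largest lower genes stayed past 4-fold. Ranked again without the 20 barcodes, a choice made after seeing the data, the largest higher included S100a8, Saa3, Ifi27l2a, Lsm5, S100a9, Clec4e, Gm6444, Ms4a6c, Rps24-ps2, Ifitm3 and Rest. Lsm5, part of the RNA-binding Lsm ring, had 335 UPM against 12.6, and Rest, a transcriptional repressor, had 302 UPM against 31.4. Gm6444 and Rps24-ps2 are again a predicted gene and a ribosomal pseudogene.

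Among genes above 0 in both libraries that averaged 50 UPM or more, S100a8 had the largest ratio in favour of CIA. It lies on chromosome 3 at 90669071 to 90670034 (GRCm38.p6), beside S100a9 at 90692630 to 90695721. Its level was 274 UPM in the healthy and 14046 UPM in the CIA lung, a ratio of 51.2. In single barcodes it ran from 0 to 844 UPM with a median of 176 in healthy, and from 938 to 101912 UPM with a median of 6136 in CIA. The ranges did not overlap, which held for 1 of the 5144 genes kept, 0.0194%, namely S100a8, while 0 genes had every CIA barcode below every healthy one. S100a9 was 193 UPM against 2572 UPM, with ranges per barcode of 0 to 373 and 142 to 27500 UPM that did overlap.

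S100a8 was uneven within the CIA lung. It reached at least 10000 UPM in 56 of 182 barcodes with 19 distinct profiles, and these held 80.1% of its units. The cut of 10000 UPM was set after seeing the values. In the other CIA barcodes S100a8 was still 4207 UPM. The median S100a9 was 3438 UPM in the 56 barcodes and 351 UPM in the rest, or 495 UPM in the rest without the 20 pseudogene-rich barcodes, which is above the highest healthy barcode. The monocyte genes Ly6c2, Ms4a6c and Ccr2 were also higher in the 56 barcodes than in the rest without those 20. Their medians were 870 and 687, 1032 and 424, and 270 and 172 UPM. Lyz2 was lower, at 11484 and 17682 UPM. Against all other CIA barcodes Plac8 had medians of 1618 and 1800 UPM. Of neutrophil genes, Retnlg had medians of 529 UPM in the 56 and 0 in all other CIA barcodes, and Ngp 135 and 0 UPM. Camp was above 0 in 44.6% and 5.56% of them, and Lcn2 in 44.6% and 0%. The neutrophil granule gene Ltf was 0 in all. Leaving out, on both sides, barcodes over the cut in S100a8, Sftpc or Scgb1a1 brought the log2 ratio of S100a8 from 5.63 to 3.55 and that of S100a9 from 3.67 to 0.94, under the 4-fold rule.

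Of the neutrophil list 8 members passed the filter on low values and all 8 were higher past 4-fold, beside 11.5% of all genes kept. This count is a description only, because 6 of the 8 were listed at 0 in healthy and passed through their CIA level. They were the granule genes Ngp (293 UPM in CIA), Camp (141 UPM), Mmp8 (125 UPM) and Wfdc21 (61.0 UPM), the resistin relative Retnlg (293 UPM) and the decoy interleukin 1 receptor Il1r2 (55.9 UPM). Ngp was above 0 in 34.6% of CIA barcodes and reached 4424 UPM, Retnlg was above 0 in 47.3%, and both were 0 in all 70 healthy barcodes. Ly6g, a defining neutrophil gene, was listed at 0 and 17.8 UPM. Cxcr2, Mmp9, Ltf and Cd177 were listed at 0 on both sides, and Csf3r, the receptor for granulocyte colony-stimulating factor, was 29.3 UPM in healthy and listed at 0 in CIA. Lcn2 had 40.7 UPM in CIA and lay below the filter.

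Among the other S100 genes the differences were small. S100a6 was 1489 against 2970 UPM and S100a4 404 against 872 UPM, while S100a10, S100a11, S100a1 and S100a13 had log2 ratios between -0.05 and 0.50. Only S100a8 and S100a9 of the 8 kept S100 genes passed 4-fold, beside 11.5% higher among all genes kept.

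**Figure D3:**
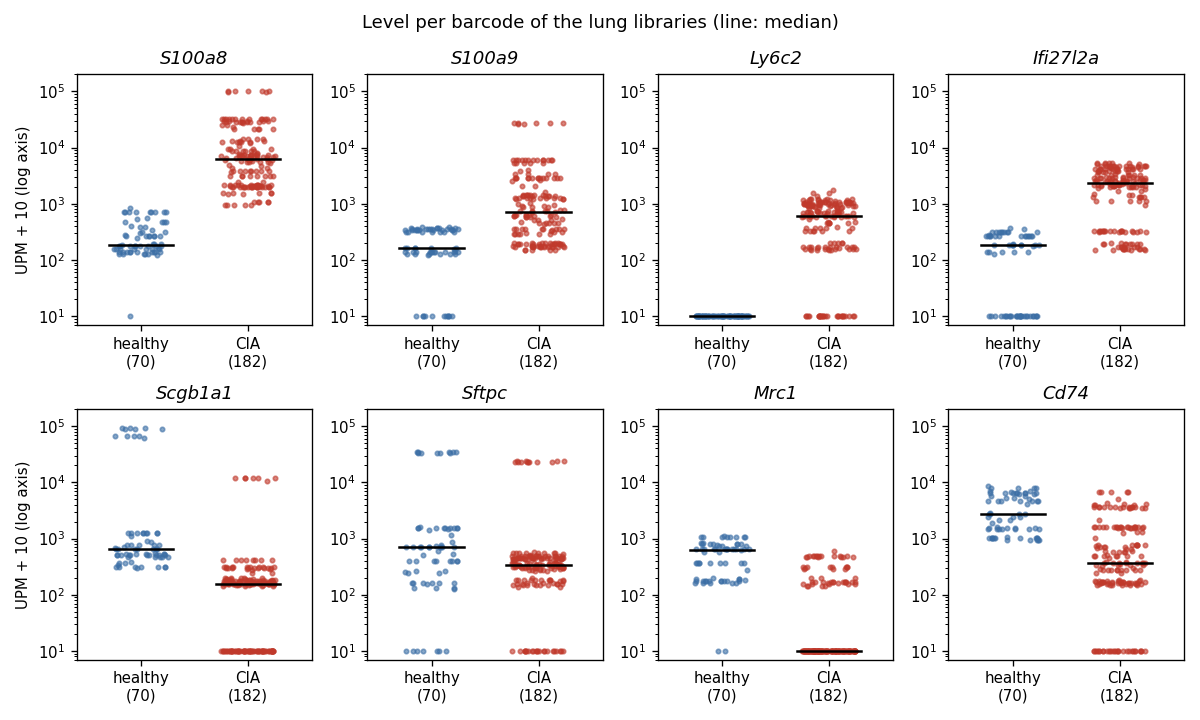
Level of 8 genes in each barcode of the healthy (70) and CIA (182) lung library, as UPM + 10 on a log axis, with the median as a line. S100a8 does not overlap between the libraries, Ly6c2 is at 0 in all healthy barcodes, and the highest Scgb1a1 and Sftpc values come from a few barcodes far above the rest.

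Of the 13 kept members of the monocyte list 5 were higher past 4-fold in CIA, beside 11.5% of all genes kept, and 1 was lower. Of the 5, 4 were listed at 0 in healthy and passed the filter through CIA alone. Ly6c2, which encodes the Ly6C surface protein that defines these cells, was listed at 0 in the healthy lung and stood at 611 UPM in CIA, the highest of the genes listed at 0 in healthy. It was above 0 in 156 of 182 CIA barcodes, with a median of 590 and a highest value of 1729 UPM. F13a1, the coagulation factor XIII subunit made by monocytes, was likewise listed at 0 and 311 UPM, Ms4a4c 0 and 235 UPM and Vcan 0 and 149 UPM. Ms4a6c was 58.6 and 617 UPM. Plac8 at 530 against 1951 UPM and the chemokine receptor Ccr2 at 64.9 against 188 UPM did not reach 4-fold. Chil3, which the list shares with alveolar macrophages, was 800 and 398 UPM. Without Lyz2 the list summed to 1700 UPM in healthy and 4637 UPM in CIA. Ace and Nr4a1, genes of the patrolling, Ly6C-low monocyte, went the other way, from 77.5 UPM to a listed 0 and from 119 to 53.4 UPM. Neither is particular to these cells, and Ace is also counted in the vascular programme below. Treml4 of the monocyte list was listed at 0 on both sides.

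Among genes named for their ratio and in no monocyte or neutrophil list, Clec4e, the C-type lectin Mincle, which recognizes mycobacterial cord factor, was 69.1 UPM in healthy and 933 UPM in CIA, and 88.5% of CIA barcodes and 34.3% of healthy barcodes had a value above 0. In no library of another organ did it exceed 188 UPM. Saa3, a local acute phase protein, was 25.1 and 644 UPM, and in healthy it was above 0 only in barcodes over 10000 UPM of Scgb1a1. Wfdc17, a small secreted protease inhibitor of macrophages, was 2923 and 7797 UPM, a ratio of 2.67 that did not reach 4-fold. Of the phagocytosis and complement lists, Fcgr3, an activating Fc receptor, was listed at 0 in healthy and was 89.8 UPM in CIA, and the complement receptor C5ar1 was 14.7 and 135 UPM.

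The interferon-stimulated list summed to 1020 UPM in healthy and 5501 UPM in CIA. Of its 29 members 11 passed the filter, 5 of them were higher past 4-fold, beside 11.5% of all genes kept, and 1 was lower. Of the 5, 3 passed the filter through CIA alone. Ifi27l2a carried the largest part, at 140 against 2320 UPM. In single barcodes Ifi27l2a ran from 0 to 359 UPM in healthy with a median of 173, and from 142 to 5266 UPM in CIA with a median of 2332. Ifitm3, a membrane protein that blocks virus entry, was 205 and 1640 UPM. Ifit1, Rsad2 (viperin) and the nucleic acid sensor Zbp1 were listed at 0 in healthy and had 116, 78.8 and 57.6 UPM in CIA. Without Ifi27l2a the list still went from 879 to 3181 UPM. Isg15 was close at 163 and 220 UPM. Ifitm1 and Irf7 were 94.2 and 16.8 UPM in healthy and listed at 0 in CIA, as was Isg20, and 14 members, Mx1 and Usp18 among them, were listed at 0 on both sides.

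To show what the promoters of the interferon genes hold, the 250 bases before each start site were searched on both strands for GAAA followed after any 2 bases by GAAA, a core of the interferon-stimulated response element, with overlapping matches counted. RefSeq promoters (GRCm38.p6) were at hand for 22 of the 29 list members, and 13 of the 22 held a match, 59.1%, against 3.46% of all 27025 genes with a promoter. The list is built from interferon targets, so this says nothing of the lung. Of the 5 members past 4-fold, 3 had a promoter, and Ifit1 and Rsad2 held a match while Ifitm3 did not. Both promoters are printed 5' to 3' on the strand of the gene, with the matches, read here on the opposite strand, in capitals. That of Ifit1 is chr19:34640639-34640888 on the plus strand and has 2 matches, beginning 104 and 85 bases before the start. That of Rsad2 is chr12:26456453-26456702 on the minus strand and has 1, beginning 120 bases before it.
Ifit1: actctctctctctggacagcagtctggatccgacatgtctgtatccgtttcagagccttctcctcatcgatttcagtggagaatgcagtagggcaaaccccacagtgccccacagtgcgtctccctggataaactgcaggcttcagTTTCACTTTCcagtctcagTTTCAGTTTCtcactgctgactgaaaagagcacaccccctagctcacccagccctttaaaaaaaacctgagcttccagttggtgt
Rsad2: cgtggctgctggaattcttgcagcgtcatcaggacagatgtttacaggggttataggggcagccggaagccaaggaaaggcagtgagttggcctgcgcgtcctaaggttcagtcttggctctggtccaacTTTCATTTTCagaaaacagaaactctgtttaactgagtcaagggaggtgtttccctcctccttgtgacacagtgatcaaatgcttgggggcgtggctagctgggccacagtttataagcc

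Some interferon and monocyte genes were not spread evenly over the CIA lung. Barcodes were set apart by a summed alveolar macrophage list of at least 5000 UPM, a cut chosen after seeing the values, which took 19 of 70 healthy barcodes (6 distinct profiles) and 28 of 182 CIA barcodes (8 distinct profiles). None of the 20 pseudogene-rich barcodes was among them. Most of them were also over 10000 UPM of the epithelial genes Sftpc or Scgb1a1, 11 of the 19 in healthy and 19 of the 28 in CIA, so the group is named here for its list and not as a pure cell type. Chil3, a chitinase-like protein of alveolar macrophages, had medians of 1946 UPM in the healthy and 2416 UPM in the CIA group, and Mrc1 785 and 466 UPM. Both are members of the list behind the cut, which favours their presence in advance. Ear2, also a member, had a median of 251 UPM in the healthy group and 462 UPM in the other healthy barcodes. In CIA these were 1087 and 0 UPM. Fabp1, a fatty acid binding protein outside the list, was at 1343 UPM in the healthy and 1553 UPM in the CIA group.

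In these alveolar macrophage-rich barcodes the ranges of Ifi27l2a overlapped between the states. It ran from 120 to 303 UPM in the healthy and from 142 to 314 UPM in the CIA barcodes. In the remaining barcodes it ran from 0 to 359 UPM in healthy and from 181 to 5266 UPM in CIA, with a CIA median of 2506 UPM. The low end in CIA came from the 20 pseudogene-rich barcodes, and without them the lowest value was 936 UPM. Ifitm3 behaved alike, with 126 to 299 UPM in the healthy and 142 to 322 UPM in the CIA alveolar macrophage-rich barcodes and a median of 1769 UPM in the other CIA barcodes. Ly6c2 was at most 161 UPM in the 28 CIA barcodes, and F13a1 and Saa3 were 0 in every one. Other monocyte genes did not share this. Ccr2 had medians of 161 UPM in the 28 and 172 UPM in the other CIA barcodes, and Lyz2 27188 and 12774 UPM.

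S100a8 did not follow this division. It was 126 to 303 UPM in the 19 healthy and 1570 to 8697 UPM in the 28 CIA alveolar macrophage-rich barcodes. The share of all genes with separate ranges between these groups was not counted. The median of S100a8 was 6814 UPM in the 28 barcodes. It was 5928 UPM in the other CIA barcodes and 7267 UPM in these without the 20 pseudogene-rich ones. Retnlg, with a median of 1172 UPM, and Ngp, with a lowest value of 155 UPM, were found in the same barcodes. Wfdc17 was 519 to 1817 UPM in the healthy and 4116 to 9732 UPM in the CIA barcodes. Without the barcodes over 10000 UPM of Sftpc or Scgb1a1, a choice added after seeing the data, 8 healthy and 9 CIA barcodes remained. Most of these repeated the values of another barcode of the same library, so the narrow ranges that follow rest on few smoothed sums. In the remaining barcodes Ifi27l2a was 299 to 303 UPM in healthy and 142 to 150 UPM in CIA, and S100a8 was 149 to 303 UPM and 6514 to 7028 UPM. Smoothing adds the molecules of neighbouring barcodes and free RNA can enter any well. Their part in these values was not tested. Barcodes of 1 library are not replicates.

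**Figure D4:**
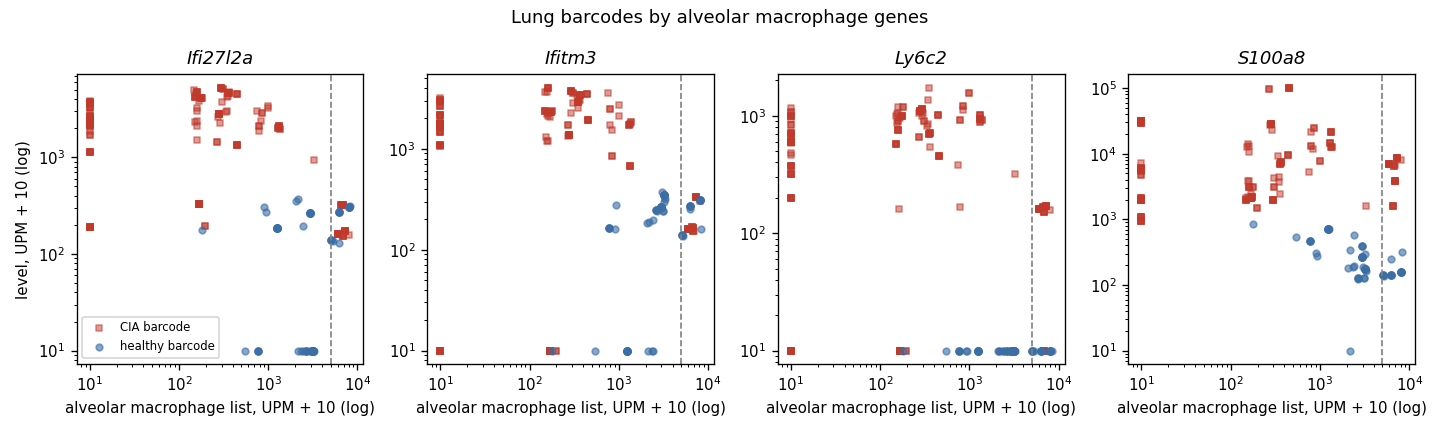
Ifi27l2a, Ifitm3, Ly6c2 and S100a8 against the summed alveolar macrophage list in each lung barcode, both as UPM + 10 on log axes, with a dashed line at 5000 UPM. To the right of the line CIA (squares) and healthy (circles) barcodes share a range for Ifi27l2a and Ifitm3, while S100a8 is higher in every CIA barcode. The barcodes to the right have 6 distinct profiles in healthy and 8 in CIA.

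The alveolar macrophage list was lower in CIA in its sum. Of its 11 kept members 2 were lower past 4-fold, a share near the 15.3% of all genes kept, none was higher, and the median log2 ratio was -1.42. Mrc1, the mannose receptor, was 547 UPM in healthy and 84.7 UPM in CIA, with a value above 0 in 97.1% of the healthy barcodes and in 29.7% of those from CIA. Cidec, a lipid droplet protein, was 352 and 58.4 UPM and did not exceed 14.8 UPM in any other organ. Atp6v0d2 at 459 and 144 UPM, Ear2 at 469 and 169 UPM, Chil3 at 800 and 398 UPM and Krt79 at 149 and 44.9 UPM were lower without reaching 4-fold. Itgax, the CD11c integrin, was 64.9 and 70.3 UPM. Siglecf was listed at 0 on both sides, and Marco was not analysed here. F7, coagulation factor VII, had the same pattern, at 509 and 59.3 UPM, and was at most 1.40 UPM outside the lung.

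The interstitial macrophage list summed to 3112 and 1638 UPM. Of its 12 kept members 3 were past 4-fold, all lower, beside 15.3% of all genes kept, and 2 of the 3 were listed at 0 in CIA. Apoe, which carries cholesterol, was 354 and 32.2 UPM. C1qa, a subunit of complement C1q, was 126 UPM and listed at 0 in CIA, and its partners C1qb and C1qc were 279 against 71.1 and 295 against 79.6 UPM. Adgre1, which encodes F4/80, was 92.1 UPM and listed at 0. Csf1r, the receptor for macrophage colony-stimulating factor, was 56.5 and 75.4 UPM, and Aif1 was 96.3 and 405 UPM.

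Genes of lipid handling and of antigen presentation by MHC class II were lower in sum. Lipid genes went from 5264 to 3060 UPM. Lpl, lipoprotein lipase, was 752 and 252 UPM, Pparg, a nuclear receptor that alveolar macrophages need, was 50.3 UPM and listed at 0, and Fabp5 was the exception at 16.8 and 114 UPM. Cd74, the invariant chain of class II, was 3516 UPM in healthy and 1084 UPM in CIA, with a median per barcode of 2725 and 362 UPM. H2-Aa was 1989 and 747 UPM and H2-Ab1 1051 and 451 UPM. None of the 9 kept class II genes passed 4-fold. Class I genes were near each other at 6707 and 7886 UPM.

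Cytokine genes differed in both directions. Among 19 kept genes of the interleukin 1 and TNF list, 4 were higher past 4-fold, beside 11.5% of all genes kept, and 1 was lower, beside 15.3%. Of the 4, 3 were listed at 0 in healthy and passed the filter through CIA alone. Il1b was 16.8 UPM in healthy and 144 UPM in CIA, and Tnf was listed at 0 and 124 UPM. The TNF receptor Tnfrsf1a was listed at 0 and 50.8 UPM. Il1a went from 54.4 UPM to a listed 0 and Il18 was 389 and 102 UPM. Chemokines and their receptors summed to 6808 and 6639 UPM, none of their 15 kept members passed 4-fold, and single members lay on either side. Cxcl2, which draws neutrophils, was 2544 and 2661 UPM, Cxcl1 was 427 and 124 UPM, and Ccl3 and Ccl4 were 105 against 297 and 151 against 479 UPM.

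Among genes above 0 in both libraries that averaged 50 UPM or more, the largest ratio in favour of healthy was that of the club cell product Scgb1a1 (chr19:9083642-9087956), at 15475 UPM in healthy and 560 UPM in CIA. Most of it came from few barcodes. Of the 70 healthy barcodes 11, with 5 distinct profiles, were over 10000 UPM and held 96.7% of the Scgb1a1 units, and the rest of the library had 630 UPM. In CIA 7 of 182 barcodes, with 2 distinct profiles, held 77.3%, and the rest had 132 UPM. Since 1 cell enters the sums of its neighbours, a group of 11 barcodes can stand for very few cells, and the number of club cells behind it cannot be counted. Without the barcodes over the cut in Scgb1a1, Sftpc or S100a8 the log2 ratio of Scgb1a1 went from -4.76 to -2.35.

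In the 11 healthy barcodes further club cell genes were found. Scgb3a2, a second secretoglobin, had a median of 3350 UPM there and was 0 in all the others, as were Cbr2 with 461 UPM and Hp with 1152 UPM. Scgb3a2, Cyp2f2, Cbr2 and Wfdc2 were listed at 0 in the CIA library, also in the 7 barcodes highest in Scgb1a1. Hp, haptoglobin, which myeloid cells make too, was 209 UPM in healthy and 302 UPM in CIA. All 11 healthy and all 7 CIA barcodes were also over 10000 UPM of Lyz2, as were 78.6% of all healthy and 70.3% of all CIA barcodes.

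The type 2 pneumocyte list was lower in sum, with mixed members. Of its 7 kept members 2 were lower past 4-fold, beside 15.3% of all genes kept, and 1, Chil1 at 0 and 59.3 UPM, was higher, beside 11.5%, and Napsa was 56.5 and 107 UPM. Sftpc was 5909 UPM in healthy and 1812 UPM in CIA, a log2 ratio of -1.70 that stayed under the 4-fold rule. It exceeded 10000 UPM in 10 of 70 healthy and 12 of 182 CIA barcodes, which held 92.1% and 84.3% of its units. Sftpa1, a collectin of the surfactant, was 616 UPM in healthy and listed at 0 in CIA. In the 10 healthy barcodes Sftpa1 had a median of 2224 UPM, close to its 2034 UPM in the 11 barcodes highest in Scgb1a1, and Sftpb and Sftpd were found in all 10 and in no other. In the 12 CIA barcodes Sftpa1, Sftpb and Sftpd were all 0, although Sftpc reached 23544 UPM. Those 12 had a median of 2641 UPM of Chil3 and 36459 UPM of Lyz2, against 0 and 14265 UPM in the rest of the CIA library.

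Of general epithelial genes, Epcam, Krt18 and Cldn4 were 58.6, 54.4 and 54.4 UPM in healthy and listed at 0 in CIA, Krt19 was 85.9 and 57.6 UPM, and Krt8 was listed at 0 on both sides. The type 1 pneumocyte genes Ager and Cav1 were each 54.4 UPM in healthy and listed at 0 in CIA, while Pdpn and Hopx were close, at 153 against 131 and 90.0 against 59.3 UPM. Of 12 ciliated cell markers 10, Foxj1 among them, were listed at 0 in both libraries, which does not show that the cells were absent.

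Genes of fibroblasts were at low levels. Of the 20 fibroblast genes 12 were above 0 in healthy and listed at 0 in CIA, and 7 were listed at 0 in both. Over all genes, 3034 of the 7099 above 0 in healthy were listed at 0 in CIA. Dcn (decorin) was 149 UPM in healthy, Sparc 151 UPM, Gsn 103 UPM and Col1a1 37.7 UPM, and Fn1 was the only member above 0 in CIA, at 50.0 UPM against 14.7. Dcn was above 0 in 24.3% and Sparc in 68.6% of healthy barcodes. In the matrix list the sum was 725 and 86.4 UPM. These are genes of low level in the healthy library, which held more of the rare genes.

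Of the 20 markers of endothelium 16, with Pecam1, Cdh5, Cldn5 and Vwf among them, were listed at 0 on both sides. The sum of the list, 191 UPM in healthy and 381 UPM in CIA, rested on Ednrb, the endothelin B receptor, at 0 and 238 UPM. Ednrb was above 0 in 55.5% of CIA lung barcodes and exceeded 50.7 UPM in no other organ. Calcrl was 71.2 and 143 UPM, and Egfl7 87.9 UPM and listed at 0. Of the vascular programme Icam1, Ace and Flt1 were likewise above 0 in healthy only, and Vcam1 and Cd93, at 33.9 and 39.0 UPM, in CIA only.

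The summed B cell, T cell and natural killer lists lay below the median of the libraries of other organs on both sides. Among B cell genes Ms4a1 (CD20) was 207 UPM, Ebf1 103 UPM and Cd79b 79.6 UPM in healthy, and all were listed at 0 in CIA, where Ighm alone remained at 40.7 UPM. Blnk, an adaptor of the B cell receptor that macrophages also use, was 350 and 19.5 UPM, and 4.70 UPM in CIA without the 20 pseudogene-rich barcodes. Cd2, an adhesion receptor of T and natural killer cells, was 446 and 31.3 UPM. A value above 0 was seen in 98.6% of the healthy barcodes and in 15.4% of those from CIA. The healthy levels of Cd2 and Blnk exceeded those of every library of another organ, at most 345 and 231 UPM. The CD3 genes were listed at 0 in both libraries, Trac was 54.4 UPM and listed at 0, and Trbc2 was 109 and 47.4 UPM. Il7r, the interleukin 7 receptor, was 77.5 and 166 UPM. Of natural killer genes the granzyme Gzma was listed at 0 and 153 UPM, while Ccl5 was 218 and 141 UPM and Xcl1 and Gzmb were 62.8 and 20.9 UPM and listed at 0 in CIA.

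S1 and H6 also gave libraries of muscle, skin, spleen, thymus and lymph node, which bear on whether a lung difference was also seen elsewhere in the same pair of mice, with the same suffixes. Ifi27l2a was higher in S1 in muscle (79.8 against 1262 UPM), spleen (122 against 1685 UPM), lymph node (133 against 1485 UPM) and skin (18.1 against 146 UPM), and it was close in thymus (71.0 against 59.7 UPM). Ifitm3 was higher in S1 in muscle, spleen and lymph node by log2 ratios of 2.99, 2.78 and 2.94. The interferon list as a whole was 1020 and 5501 UPM in lung, 1200 and 5441 UPM in muscle, 1007 and 4510 UPM in spleen and 557 and 2713 UPM in lymph node. In thymus it was 504 and 506 UPM, and in skin 1168 and 1644 UPM.

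S100a8 was not of 1 direction. It was higher in S1 in spleen, at 60461 against 2779 UPM, in lymph node and in thymus, but in muscle it was 59333 UPM in H6 and 14030 UPM in S1. Ngp and Retnlg followed it in spleen and muscle. Ly6c2 was higher in S1 in spleen, at 25.8 and 502 UPM, and lower in muscle, at 353 and 56.7 UPM, and in skin. The differences of Clec4e and Apoe also took another sign in muscle, with Clec4e at 99.3 and 0 UPM and Apoe at 99.0 and 1844 UPM. Apoe was also higher in S1 in lymph node. Rest, which passed 4-fold in lung, had log2 ratios between -0.94 and -0.35 in the 5 other organs.

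**Figure D5:**
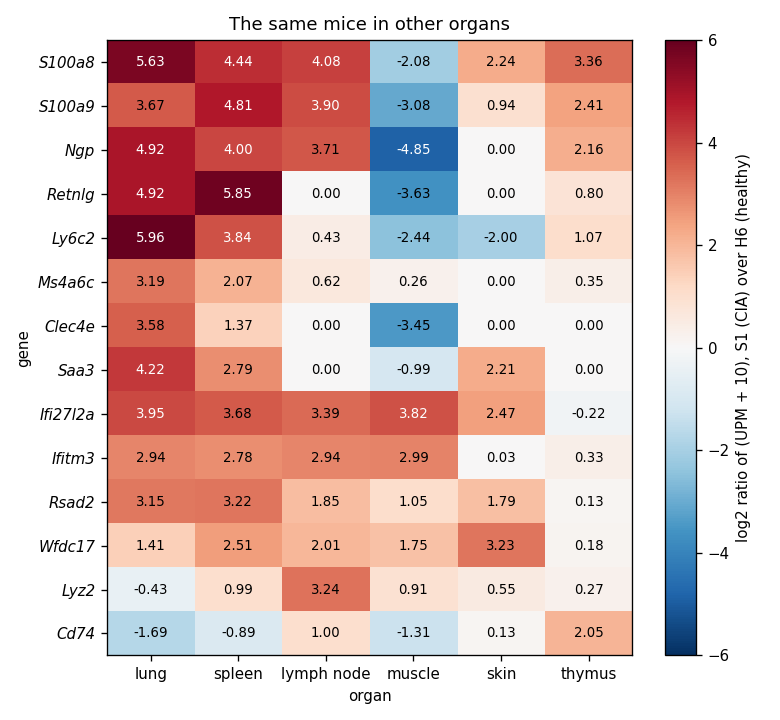
Log2 ratio of (UPM + 10) of mouse S1 (CIA) over mouse H6 (healthy) for 14 genes in 6 organs, with 1 library per mouse and organ and therefore no error. Ifi27l2a is higher in S1 in all organs but thymus, while the neutrophil genes and Ly6c2 are lower in S1 in muscle.

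Signs of handling differed moderately between the lung libraries. Immediate early genes, which dissociation induces, summed to 11088 UPM in healthy and 7710 UPM in CIA, with Fos at 967 and 247 UPM (166 UPM without the 20 pseudogene-rich barcodes, past 4-fold) and Junb at 2285 and 1310 UPM. Nuclear RNA summed to 14838 and 7786 UPM, of which Malat1 was 12072 and 6280 UPM. Heat shock genes were 7189 and 5617 UPM. Their part in the differences described above was not tested.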

How the data were processed

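The authors sequenced Seq-Well libraries, aligned reads to mouse GRCm38 with STAR, counted molecules with Drop-seq tools and smoothed the data over nearest neighbours (k = 12); the labels name other builds for the series. The deposited values are a signal of whole numbers, not scaled to a common total. Counting intervals and count models were therefore not used. There were no mitochondrial rows. Doublets were not called. Units were summed per library and scaled to 1000000. The measure was the log2 ratio of (UPM + 10), for genes whose mean over both libraries reached 25 UPM, called at 4-fold. Gene names came from RefSeq (21404 of 23013 rows). The 46 gene lists, the members and the settings were chosen with earlier results of these data known. Named genes were the 12 largest ratios per direction among genes above 0 in both and averaging 50 UPM or more, the 6 highest at 0 on the other side, the 10 highest per library, and the 5 highest and all called members of each list. Cuts on single barcodes were set after seeing the data. Python 3.11.15 and numpy 2.4.6 were used, and the calling step was tested on simulated libraries. Some genes that the rule names are not reported here.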

Additional observations from a re-analysis of the deposited data

How the results depend on the processing

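The counts depended most on the treatment of low genes. Against 590 higher and 788 lower genes, no filter gave 1011 and 1373, a mean of at least 100 UPM gave 125 and 41, genes above 0 in both libraries gave 183 and 42, and a pseudocount of 50 gave 91 and 40. At 2-fold 1257 genes were higher, and at 8-fold 260 were higher and 353 lower. Scaling by a trimmed mean of log ratios had a log2 factor of 0.22 and by the median of ratios 0.20, which lowered the log2 ratios by up to that much. The counts became 441 higher and 806 lower with the former, and 443 and 804 with the latter. Neither moved a list or named gene by more than 1.5-fold, the limit used here for want of replicates. Of the 124 named genes past 4-fold, 47 remained so with a pseudocount of 50, 112 without the pseudogene-rich barcodes and 107 without the barcodes over 10000 UPM of Scgb1a1, Sftpc or S100a8. The last setting, chosen after seeing the data like the other 2 that leave out barcodes, moved the log2 ratio of neutrophil genes from 5.12 to 2.94, of club cell genes from -4.25 to -0.99, of type 2 pneumocyte genes from -1.44 to -0.71 and of fibroblast genes from -3.56 to -2.63; a pseudocount of 50 took the last to -2.90. Without the pseudogene-rich barcodes Gins3, Gm15921 and Rp31-ps19 reversed, to -1.98, -2.43 and -0.36, because those barcodes held their units. Leaving out barcodes shared between libraries, 13 in CIA and 1 in healthy, moved no list by over 1.5-fold. No paired analysis was possible because each state had 1 library and no result came from a test.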

Other observations

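The list of iron and oxidative stress genes summed to 28405 UPM in healthy and 30266 UPM in CIA, with Fth1, the ferritin heavy chain, at 10895 and 11870 UPM and Ftl1, the light chain, at 6406 and 3079 UPM. Of its 24 kept members 2 were higher past 4-fold and 3 lower, no more than the 11.5% and 15.3% among all genes kept, with a median log2 ratio of 0.10. Sod2, the mitochondrial superoxide dismutase, was 83.8 and 453 UPM and Txnrd1, thioredoxin reductase, was 98.4 and 547 UPM, both past 4-fold. Prdx1, a peroxiredoxin, was 2728 and 5597 UPM and Gclm, a subunit of the enzyme that starts glutathione synthesis, was 268 and 757 UPM. Neither CIA level of Sod2 and Txnrd1 was reached in any library of another organ, where the highest were 413 and 197 UPM. The lower members were Trf (transferrin), Gpx3 and Cp (ceruloplasmin), at 163, 67.0 and 50.3 UPM in healthy and listed at 0 in CIA.

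Lysosomal genes other than Lyz2 were close, at 16076 UPM in healthy and 14206 UPM in CIA. Ctsk, cathepsin K, was lower past 4-fold at 400 and 88.9 UPM, and Ncf1, a subunit of the phagocyte oxidase, was 98.4 UPM and listed at 0, while Cybb, the catalytic subunit, was 465 and 617 UPM. Cell cycle genes summed to 865 and 1462 UPM with none of 6 kept members past 4-fold, and Mki67 was listed at 0 on both sides. Among protease genes Mmp12 was alike at 230 and 243 UPM, and Mmp13 was listed at 0 and 72.8 UPM.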
